A study of Mus musculus with 18 samples.

Results

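Retinal cells that carried a plasmid for knockdown of Nmnat2 were compared with cells that carried a scramble plasmid, in 6 of the 18 samples of the study. Both groups came from retinas of ICR mice, an outbred stock, taken at postnatal day 0.5, and each group had 3 samples. The retinas were electroporated with the knockdown plasmid or the scramble plasmid, in both cases together with a plasmid for EGFP, and were kept as explants for 3 days. The tissue was then trypsinized, EGFP-positive cells were sorted, and SMART-Seq v4 turned 1 ng of their total RNA into cDNA, per the labels. What drives the shRNA and EGFP, and which cells take up the plasmids, is not given in the labels. The title of 1 of the 3 Nmnat2 knockdown samples names Nmnat3, whereas its description and characteristics name Nmnat2, and these were followed (likewise for 1 of the 3 Nmnat2 overexpression samples used below). Further points of comparison are 3 libraries with an Nmnat1 knockdown plasmid, from the same deposited table, and 3 with an Nmnat2 overexpression plasmid and 3 with its empty vector, from another table, all in ICR retinas of the same age and culture time. The labels do not tie a group's samples to separate litters, retinas or dishes, and the p-values below therefore rest on a spread that may be technical.

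Nmnat2 encodes an enzyme that joins nicotinamide mononucleotide to adenylate and so makes NAD, and it is found on Golgi membranes and on vesicles that travel along axons. The protein is short-lived, and its loss sets off degeneration of axons through the NADase SARM1. In the retina of the newborn mouse most newly born cells become rods, cones are already born, and bipolar cells and Müller glia are still forming. Photoreceptors at that age have switched on genes of phototransduction and of the ribbon synapse, and have not yet grown outer segments.

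The 6 columns, here called N2_1, N2_2 and N2_3 for Nmnat2 knockdown and C1, C2 and C3 for scramble, had deposited sums between 14.4 and 29.6 times 1000000 and 24523 to 28953 genes above 0. Levels are given in parts per 1000000 (ppm) of the column's sum, and 3 values of a group always stand in the order of these names. Library N2_2 stood apart from all the others. Genes with names that start with mt- made up 6.51% of its sum, against 2.84% and 2.85% in the other knockdown libraries and 2.74% to 4.67% in scramble. On the first principal component of the 9 libraries of the table (24.4% of the variance) N2_2 lay at 128.7, and the 8 others lay between -31.2 and -5.83. The other pair of knockdown libraries, N2_1 and N2_3, was closer than any other pair. Over 3975 genes with a mean of at least 50 ppm their median absolute log2 ratio was 0.063, against 0.15 to 0.168 between scramble libraries, whereas N2_2 was at 0.720 and 0.736 from them and at 0.573 to 0.638 from scramble. From the reads that the values of single-transcript genes imply, a chi-square comparison of N2_1 with N2_3 had a median of 1.54 and a mean of 3.85 per gene over 2714 genes. That mean is above the value of 1 that sampling noise alone gives, so they were not merged as 1 library deposited more than once. This does not show that they came from separate cultures, and the other pairs within a group of the table had medians of 4.72 to 17.1. Whether N2_1 and N2_3 share a culture is not given in the labels and was not tested. Counts of calls are given with and without N2_2, and those without it rest on this close pair as n = 2. In a fit that kept N2_2 and averaged the pair as 1 sample, no gene passed (below). The pair was not averaged in a fit without N2_2.

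**Figure D1:**
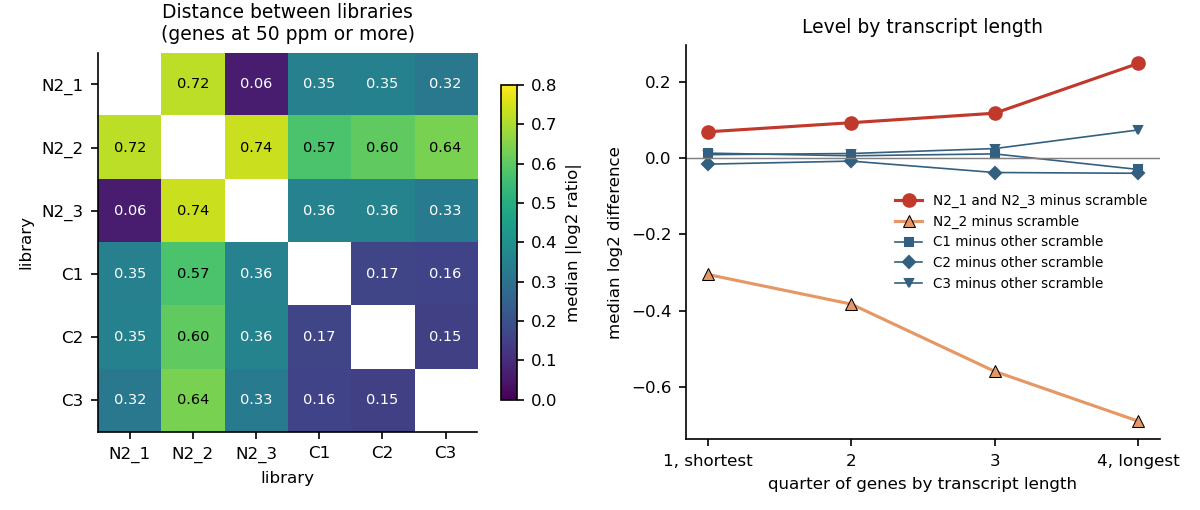
Left: median absolute log2 ratio between each pair of the 6 libraries, over 3975 genes at 50 ppm or more, from dark (close) to bright (far), with N2_1 and N2_3 at 0.06 and N2_2 at 0.57 or more from every other library. Right: median log2 difference over 9016 protein-coding genes above a minimum level, in 4 bins by the median length of a gene's annotated transcripts. Lines are for the average of N2_1 and N2_3 and for N2_2, each minus the scramble mean, and for each scramble library minus the other 2. The N2_2 line falls with length, from -0.31 in the bin of the shortest transcripts to -0.69 in that of the longest.

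N2_2 also differed by transcript length. Over 4 bins of transcript length its median log2 difference from scramble was -0.31 in the bin of the shortest transcripts and -0.69 in that of the longest, whereas the average of N2_1 and N2_3 was at 0.07 and 0.25. Each scramble library stayed between -0.04 and 0.08 of the other scramble libraries in all 4 bins. The part that RNA length or quality had in the results for N2_2 was not tested.

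The targeted gene did not check the knockdown. Nmnat2 (ENSMUSG00000042751.14, chromosome 1, 152954993 to 153119261, plus strand, GRCm38) was listed at 1.27, 1.01 and 0.503 ppm in Nmnat2 knockdown cells, against 6.22, 0.624 and 2.03 ppm in scramble cells. The groups overlapped, since C2 lay below N2_1 and N2_2, and the values were near the 1 ppm used as the filter on low values. On the log2(ppm + 1) scale the difference was -0.79 ± 0.52 (SE, n = 3 each; limma adjusted p = 0.476, and 0.389 without N2_2), and an exact permutation test of the means gave p = 0.3, where 0.1 is the smallest that 3 against 3 allows. Nmnat1, the nuclear enzyme of the family, was at 21.1, 14.2 and 21.3 ppm against 19.1, 20.9 and 17 ppm (exact permutation p = 1), and Nmnat3, the mitochondrial one, at 0.688, 1.20 and 0.362 ppm against 1.44, 0 and 1.96 ppm (exact permutation p = 0.6). A loss of Nmnat2 mRNA was thus not detectable at this level, and the groups overlapped for the other 2 family members as well.

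With all libraries, 97 of 22233 genes tested passed an adjusted p of 0.05 by limma in Nmnat2 knockdown cells, of which 17 (0.0765% of genes tested) rose and 80 (0.36%) fell. Of the 97, 30 have clone, predicted, pseudogene or immunoglobulin names, and 11 of the other 67 rose and 56 fell. All 97 also passed with the same sign without N2_2, and none of them had overlapping groups. For comparison, all 3 knockdown libraries lay above all 3 scramble libraries in 4.73% of genes tested, and below them in 17.2%. Without N2_2, 1718 genes (7.73%) rose and 1613 (7.25%) fell. N2_2 itself lay above all scramble libraries for 343 of these 1718 genes and below them for 1130, and below them for 1048 of the 1613 and above for 244. Over all genes tested it was above all scramble libraries in 18.4% and below them in 48.6%. The 97 calls depended on every library other than N2_2: limma called 0 genes without C1, C2, C3, N2_1 or N2_3, where 2786 to 3388 genes had an unadjusted p under 0.05, and 0 genes with N2_1 and N2_3 averaged as 1 sample, where 2863 had. The median log2 difference of all genes was -0.23 with all libraries and -0.15 without N2_2. Scaling by the median of ratios moved these medians to -0.05 and -0.03 and turned the split to 66 higher and 33 lower, or 2760 and 1203 without N2_2. The medians of several lists are therefore also given under it. Of the 97 calls, 50 were also made under the median of ratios. Outside the photoreceptor lists, Apoe, Aldoc, Eno2, Gpi1, Eci2, Snap25, Psma1, Kcne1l, Tmem92, Plekhb1, Pias3 and Cabp1, all named below, lost theirs (limma adjusted p between 0.0604 for Plekhb1 and 0.167 for Snap25). In parentheses below, a value with ± is a log2 difference with its SE, and the value after it is its limma adjusted p.

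Of the 80 genes that fell with all libraries, 10 stood on 6 lists of photoreceptor genes, of which 103 members were tested, and none of these rose. Of the cone genes, Opn1sw, the short-wavelength cone opsin, was at 24, 69.3 and 31.9 ppm in Nmnat2 knockdown cells, against 132, 131 and 154 ppm in scramble cells. Every knockdown library lay below every scramble library, and N2_2 was the highest of the 3. The log2 difference was -1.85 ± 0.32 (limma adjusted p = 0.043), and -2.28 ± 0.14 without N2_2 (1.68e-05). Gnat2, the alpha subunit of cone transducin, was at 14.9, 11.4 and 9.59 ppm against 33.6, 59.8 and 32.7 ppm, and here N2_2 lay between the other 2 (-1.70 ± 0.28, limma adjusted p = 0.0379). Of 12 cone phototransduction genes tested these 2 fell with all libraries and 5 fell without N2_2, and none rose in either fit. The further 3 were Gngt2, the cone transducin gamma subunit, Gnb3, the beta subunit, and Kcnv2, a potassium channel subunit of photoreceptors. Gngt2 was at 799, 4029.7 and 752 ppm against 2540.4, 2102 and 2027 ppm, so that N2_2 exceeded every scramble library while N2_1 and N2_3 lay below them. Gngt2 made up most of the summed level of the cone list in every one of these libraries. That sum was 1374, 4794 and 1303 ppm in knockdown and 3537, 3220.3 and 3107 ppm in scramble libraries. In bulk RNA of sorted cells, fewer cells of a type and less RNA per cell cannot be told apart.

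**Figure D2:**
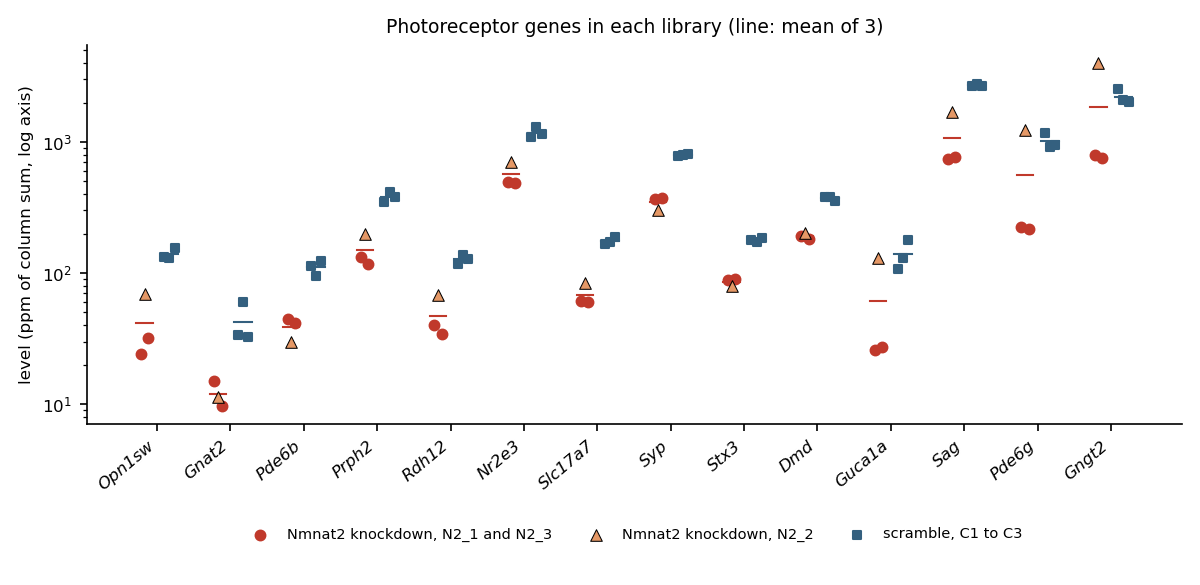
Levels of 14 photoreceptor genes in ppm of the column sum on a log axis, 1 point per library, with Nmnat2 knockdown (circles for N2_1 and N2_3, a triangle for N2_2) left of scramble (squares) for each gene, and lines at the means of 3. In the first 10 genes the groups do not overlap. In Guca1a, Pde6g and Gngt2 the triangle lies within or above the scramble values while the circles lie below them.

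Rod phototransduction genes were mostly lower in N2_1 and N2_3 and divided in N2_2. Pde6b, the beta subunit of the rod phosphodiesterase, was at 44.2, 29.9 and 41.6 ppm in Nmnat2 knockdown cells, against 114, 95 and 123 ppm in scramble cells, and was the 1 gene of 19 tested that fell with all libraries (-1.51 ± 0.20, limma adjusted p = 0.0213). Without N2_2, 12 of the 19 fell and none rose. Sag, the rod arrestin and the most abundant of the list, was at 738, 1699 and 761 ppm against 2676, 2785 and 2682 ppm, without overlap, and missed the threshold with all libraries (-1.46 ± 0.27, limma adjusted p = 0.0529; -1.85 ± 0.06, 1.95e-07 without N2_2). Guca1a, which encodes a calcium sensor of guanylate cyclase, was at 25.9, 131 and 27.2 ppm against 107, 131 and 179 ppm. Its N2_2 value lay within the scramble range, whereas N2_1 and N2_3 lay below it (-2.31 ± 0.18, limma adjusted p = 5.85e-05 without N2_2). N2_2 lay above every scramble library, and N2_1 and N2_3 below, for Pde6g, the inhibitory subunit of the phosphodiesterase, at 226, 1225 and 217 ppm against 1181, 912 and 956 ppm, and for Gngt1, the rod transducin gamma subunit, at 59.1, 414 and 54.5 ppm against 301, 233 and 223 ppm. Gnb1, the rod transducin beta subunit, which many cell types use, did not pass in either fit (675, 266 and 661 ppm against 684, 791 and 737 ppm). The summed level of the rod list was 3291, 6474 and 3297 ppm in knockdown and 7477, 7594 and 7263 ppm in scramble libraries. The median log2 difference of the 19 genes was -0.95 with all libraries and -1.06 without N2_2, or -0.78 and -0.93 by the median of ratios, and that of the 12 cone genes was -0.89 and -1.10, or -0.69 and -0.97.

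The letters TAATCC are the core that the homeodomain factors CRX and OTX2 bind in photoreceptors, and 6 promoters of cone and rod genes named here are shown to let a reader see where it stands. Opn1sw, Gnat2 and Pde6b are genes that fell with all libraries. Guca1a, Sag and Cngb1 were taken from rod genes whose promoters hold the core, so the 6 do not show how often it occurs. Each runs from 250 bases before the RefSeq start of transcription to 50 bases after it (GRCm38.p6), with TAATCC or its reverse complement GGATTA in capitals.
Opn1sw (chr6:29380464-29380763, minus strand): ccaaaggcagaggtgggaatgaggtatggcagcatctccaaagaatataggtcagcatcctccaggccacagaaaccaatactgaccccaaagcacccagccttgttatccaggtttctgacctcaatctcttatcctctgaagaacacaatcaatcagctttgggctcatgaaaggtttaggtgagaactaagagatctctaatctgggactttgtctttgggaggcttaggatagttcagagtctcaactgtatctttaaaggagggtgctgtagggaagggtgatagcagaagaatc
Gnat2 (chr3:108092816-108093115, plus strand): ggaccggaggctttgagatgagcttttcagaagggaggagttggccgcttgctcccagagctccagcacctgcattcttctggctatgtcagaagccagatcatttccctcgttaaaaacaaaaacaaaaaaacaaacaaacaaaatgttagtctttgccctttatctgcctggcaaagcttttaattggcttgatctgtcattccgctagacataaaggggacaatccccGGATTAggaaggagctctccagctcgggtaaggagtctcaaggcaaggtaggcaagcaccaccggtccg
Pde6b (chr5:108388123-108388422, plus strand): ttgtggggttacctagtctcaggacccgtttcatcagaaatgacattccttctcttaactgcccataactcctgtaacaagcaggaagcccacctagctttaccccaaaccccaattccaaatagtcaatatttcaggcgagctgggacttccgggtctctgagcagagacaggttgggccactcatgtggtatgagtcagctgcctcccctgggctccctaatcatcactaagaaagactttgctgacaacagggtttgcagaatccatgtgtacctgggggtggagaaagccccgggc
Guca1a (chr17:47400557-47400856, minus strand): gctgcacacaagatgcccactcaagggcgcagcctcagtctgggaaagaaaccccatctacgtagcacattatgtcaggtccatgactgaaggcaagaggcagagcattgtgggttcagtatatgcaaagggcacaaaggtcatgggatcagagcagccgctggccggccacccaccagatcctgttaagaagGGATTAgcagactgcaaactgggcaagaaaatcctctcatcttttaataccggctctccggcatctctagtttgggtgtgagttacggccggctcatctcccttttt
Sag (chr1:87803430-87803729, plus strand): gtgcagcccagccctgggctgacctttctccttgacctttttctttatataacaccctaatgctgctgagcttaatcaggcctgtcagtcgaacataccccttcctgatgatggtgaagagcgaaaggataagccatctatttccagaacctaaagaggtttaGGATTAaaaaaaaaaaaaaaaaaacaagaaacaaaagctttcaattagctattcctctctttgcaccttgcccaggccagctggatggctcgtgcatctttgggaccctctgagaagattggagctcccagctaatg
Cngb1 (chr8:95306536-95306835, minus strand): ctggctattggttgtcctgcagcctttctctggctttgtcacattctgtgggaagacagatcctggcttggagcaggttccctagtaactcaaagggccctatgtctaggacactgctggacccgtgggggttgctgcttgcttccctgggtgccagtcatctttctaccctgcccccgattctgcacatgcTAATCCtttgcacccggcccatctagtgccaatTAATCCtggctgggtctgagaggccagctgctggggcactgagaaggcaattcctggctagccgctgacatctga
The core occurred in the Gnat2, Guca1a and Sag promoters and 2 times in that of Cngb1, a subunit of the rod cyclic nucleotide-gated channel, and not in these windows of Opn1sw and Pde6b. Searched as these 6 letters on both strands with no other motif, it was in 53.8% of the 13 promoters found for rod phototransduction genes tested and in 11.1% of 9 promoters of cone phototransduction genes. It was in 24.1% of the 112 promoters of 80 photoreceptor genes of the 6 lists, and in 7.06% of all 32851 promoters of the same length. Of the 11 promoters of the 10 photoreceptor genes that fell with all libraries 27.3% held it. A match of letters is not a bound site. Cngb1 was at 78.8, 202 and 80.1 ppm in Nmnat2 knockdown cells and 205, 249 and 217 ppm in scramble cells (-1.48 ± 0.11, limma adjusted p = 4.42e-05 without N2_2; 0.149 with all libraries). Of the factors themselves, Crx was at 564, 352 and 540.4 ppm against 533, 533 and 556 ppm and did not pass in either fit, and Otx2 at 1503, 974 and 1493 ppm against 1892, 1809 and 1737 ppm, which passed without N2_2 only (-0.27 ± 0.06, limma adjusted p = 0.0192).

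Among 13 transcription factors and partners of photoreceptor fate tested, Crx and Otx2 included, 1 fell with all libraries, and 2 rose and 6 fell without N2_2. By the median of ratios none passed with all libraries, and 5 rose and 5 fell without N2_2. Their median log2 difference was -0.48 with all libraries and -0.27 without N2_2, or -0.24 and -0.115 by the median of ratios. Nr2e3, a nuclear receptor that holds rods in the rod state and represses cone genes, was at 498, 708 and 489 ppm against 1097, 1300.1 and 1143 ppm (-1.08 ± 0.17, limma adjusted p = 0.0336). All 3 knockdown libraries lay below the lowest scramble value. Nrl, the leucine zipper factor upstream of Nr2e3, was at 119.8, 313 and 119 ppm against 263, 269.9 and 225 ppm, lower in N2_1 and N2_3 and higher than scramble in N2_2 (-1.07 ± 0.10, limma adjusted p = 0.000116 without N2_2). Samd7 and Samd11, partners in repression of genes that rods do not use, were also lower without overlap and passed without N2_2 only (limma adjusted p = 0.0529 and 0.0704 with all libraries, 0.000333 and 0.00207 without N2_2). Going the other way without N2_2 were Rorb, a nuclear receptor upstream of Nrl (0.56 ± 0.09, limma adjusted p = 0.00245), and Prdm1, which holds precursors in the photoreceptor fate (0.49 ± 0.08, 0.0025), while Neurod1 passed in neither fit (1152, 917 and 1145 ppm against 1084, 969 and 952 ppm).

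Genes of the outer segment and of retinoid handling had calls in the same direction. Prph2, which shapes the rims of outer segment discs, was at 132, 199.8 and 116 ppm in Nmnat2 knockdown cells, against 346, 415 and 381 ppm in scramble cells (-1.38 ± 0.20, limma adjusted p = 0.0281). Of 22 genes of this list tested it was the 1 that fell with all libraries, and 13 fell and none rose without N2_2. Among these were Rom1, the partner of Prph2 (509.5, 837 and 513 ppm against 945, 983 and 1033 ppm), Aipl1, a chaperone of the phosphodiesterase (19.1, 48.9 and 19.9 ppm against 78.3, 71.2 and 75.8 ppm), and Rd3, which controls guanylate cyclase traffic (85.4, 169.7 and 78.6 ppm against 227, 223 and 209 ppm), each without overlap of the 3 and 3 libraries. Rdh12, which reduces retinal in photoreceptor inner segments, was at 39.8, 68.3 and 34 ppm against 117, 137 and 129 ppm (-1.47 ± 0.25, limma adjusted p = 0.0382). It was 1 of 17 retinoid genes tested, of which 5 fell without N2_2. Abca4, the disc flippase that clears retinal, was at 35.5, 61.1 and 34 ppm against 93.7, 66 and 67.2 ppm (-1.08 ± 0.17, limma adjusted p = 0.00266 without N2_2), with N2_2 just below the lowest scramble library. Genes of cilia had no call with all libraries among 28 intraflagellar transport and BBSome genes tested, and 8 of them fell without N2_2, such as Arl6 (70.9, 145 and 67.1 ppm against 171, 161 and 146 ppm). By the median of ratios without N2_2, 3 of the 28 fell and 1 rose.

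Several presynaptic genes of photoreceptors fell with all libraries, N2_2 included. Syp, a membrane protein of synaptic vesicles, was at 365, 300.1 and 373 ppm in Nmnat2 knockdown cells, against 776, 792 and 807 ppm in scramble cells, a 2.29-fold lower mean (-1.20 ± 0.14, limma adjusted p = 0.0213). Slc17a7, which loads vesicles with glutamate, was at 61, 84 and 59.7 ppm against 166, 173 and 189 ppm (-1.37 ± 0.18, 0.0213). Stx3, the syntaxin of ribbon synapses, was at 88, 79.2 and 89.7 ppm against 179.9, 173 and 186 ppm (-1.06 ± 0.15, 0.0235), and Dmd, whose short product sits at photoreceptor terminals, at 190.4, 203 and 183 ppm against 381, 378 and 356 ppm (-0.95 ± 0.14, 0.029). In these 4 genes the spread within each group was small beside the gap between the groups. Of 20 ribbon synapse genes tested these 4 fell with all libraries, and 3 rose and 6 fell without N2_2. Ctbp2, whose product includes the ribbon protein RIBEYE, passed in neither fit (210.5, 134 and 219 ppm against 195, 159.8 and 173 ppm), and Cacna2d4, a subunit of the presynaptic calcium channel, rose without N2_2 (292, 136 and 294 ppm against 202, 174 and 195 ppm, limma adjusted p = 0.00142). Snap25, a SNARE of vesicle release in neurons in general, was at 266, 298 and 263 ppm against 482, 493 and 464 ppm (-0.80 ± 0.13, limma adjusted p = 0.0379, and 0.167 by the median of ratios). It and Syp, which stands on both lists, were the 2 of 23 general vesicle genes that fell with all libraries. Under the median of ratios Pde6b, Syp and Stx3 kept their calls (limma adjusted p = 0.0259, 0.031 and 0.0468), and Opn1sw, Gnat2, Slc17a7, Prph2, Rdh12, Nr2e3 and Dmd were between 0.0566 and 0.131 with the same sign. The median log2 difference with all libraries was -0.66 for outer segment, -0.83 for retinoid and -0.48 for ribbon synapse genes, or -0.42, -0.60 and -0.25 by the median of ratios.

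In the other direction lay genes of amacrine and horizontal cells. Calb2, the calcium buffer calretinin, was at 338, 161 and 341 ppm in Nmnat2 knockdown cells, against 96.8, 93.7 and 83.5 ppm in scramble cells, a 3.06-fold higher mean with no overlap (1.53 ± 0.27, limma adjusted p = 0.0484). It was the 1 of 20 genes of this list that rose with all libraries, and 10 rose and none fell without N2_2. Ptf1a, which commits precursors to the amacrine and horizontal fates, was at 62, 13.5 and 62.1 ppm against 14.6, 15.9 and 8.90 ppm. Tfap2b, a factor of amacrine cells, was at 71.6, 29.9 and 71.8 ppm against 16.9, 24.5 and 19.8 ppm, and Gad2, which makes GABA, at 65.1, 41 and 67.7 ppm against 21.7, 27.4 and 20.9 ppm. In Tfap2b and Gad2 all 3 knockdown libraries lay above scramble, with N2_2 the lowest of them, and in Ptf1a N2_2 lay within the scramble range. Without N2_2 the limma adjusted p was 0.00551 for Ptf1a, 0.0007 for Tfap2b and 0.000399 for Gad2, against 0.231, 0.109 and 0.0621 with all libraries. The summed level of the list was 1468, 688 and 1469 ppm in knockdown and 671, 709 and 690.1 ppm in scramble libraries, so that N2_1 and N2_3 were far above the scramble sums and N2_2 within their range. The median log2 difference of the 20 genes was 0.42 with all libraries and 0.53 without N2_2, or 0.62 and 0.69 by the median of ratios. Genes of mature cells of this list such as Chat and Calb1 were listed at under 4 ppm in all 6 libraries.

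**Figure D3:**
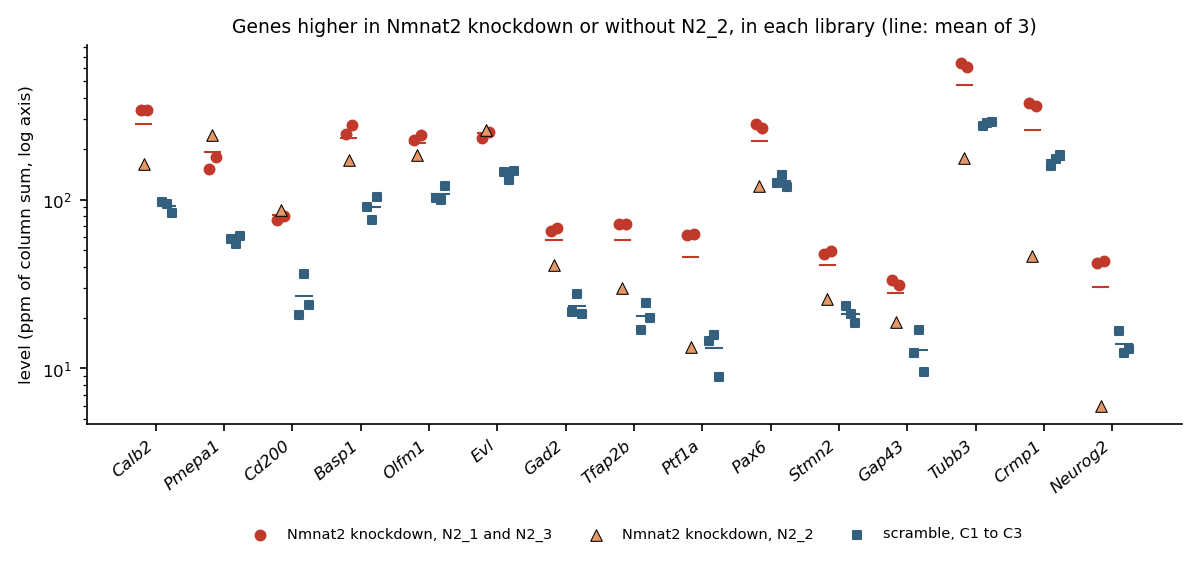
Levels of 15 genes in ppm of the column sum on a log axis, 1 point per library, with Nmnat2 knockdown (circles for N2_1 and N2_3, a triangle for N2_2) left of scramble (squares), and lines at the means of 3. In Calb2, Pmepa1, Cd200, Basp1, Olfm1 and Evl all knockdown libraries lie above scramble. In Ptf1a, Tubb3, Crmp1 and Neurog2 the triangle lies within or below the scramble values.

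Genes of neurogenic precursors divided the knockdown libraries. None of 17 tested passed with all libraries (limma, adjusted p under 0.05), and 9 rose and none fell without N2_2. Neurog2, a proneural factor, was at 41.8, 5.96 and 43.1 ppm in Nmnat2 knockdown cells, against 16.6, 12.3 and 13 ppm in scramble cells, and Dll1, a Notch ligand, at 69.3, 6.11 and 73.3 ppm against 25.1, 39.4 and 22 ppm. In both, N2_2 lay below every scramble library and the other 2 lay above. Prdm13, which favours inhibitory amacrine cells, was at 196, 57.3 and 211 ppm against 81.3, 83.5 and 83.3 ppm (1.29 ± 0.17, limma adjusted p = 0.00116 without N2_2; 0.448 with all libraries). Btg2, an antiproliferative gene of cells about to leave the cycle, was above scramble in all 3 libraries, at 796, 464 and 741 ppm against 402, 408 and 395 ppm (0.93 ± 0.07, 3.27e-05 without N2_2; 0.129 with all libraries). The progenitor list had no call among 17 genes with all libraries, and 5 rose and 1 fell without N2_2. Pax6, a factor of progenitors and of amacrine cells, was among the 5 (280.4, 119.8 and 263 ppm against 126, 141 and 119 ppm, adjusted p = 0.000859) and Hes5, a Notch effector, was the 1 (124, 58 and 132 ppm against 175, 160.3 and 182 ppm, adjusted p = 0.0195). Of 30 genes of the G2 and M phases none passed with all libraries and 5 fell without N2_2, with list sums of 148, 136 and 139 ppm against 232, 211 and 211 ppm. The sums were similar in Nmnat1 knockdown libraries, at 134, 146 and 158 ppm, and the median log2 difference between the knockdowns was -0.04.

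Axon and growth cone genes also included members that rose. Basp1, a membrane protein of growth cones, was at 246, 171 and 277 ppm in Nmnat2 knockdown cells, against 90.1, 76.1 and 104 ppm in scramble cells, and rose with all libraries (1.34 ± 0.22, limma adjusted p = 0.0379). Of 29 genes tested it was the 1 that did so, and 15 rose and 1 fell without N2_2. Stmn1, a tubulin-binding protein, was above scramble in all 3 libraries (3453, 2589 and 3352 ppm against 2044, 2032 and 2003 ppm; 0.75 ± 0.06, limma adjusted p = 8.73e-05 without N2_2 and 0.0951 with it). So were its relative Stmn2 (47.6, 25.9 and 49.4 ppm against 23.5, 21 and 18.5 ppm) and Gap43, the growth cone protein (33.2, 18.9 and 31.2 ppm against 12.3, 16.9 and 9.58 ppm). Tubb3 and Crmp1, a neuronal tubulin and a mediator of semaphorin signals, were at 646, 176 and 613 ppm against 274, 284 and 288 ppm and at 371, 46.5 and 356 ppm against 158, 174 and 184 ppm. In both, N2_2 lay below every scramble library. Map1b, a microtubule protein of growing axons, was the 1 that fell without N2_2 (216, 135 and 209.8 ppm against 258, 277 and 259 ppm, limma adjusted p = 0.0355). The median log2 difference of the 29 genes was 0.52 without N2_2, or 0.68 by the median of ratios, and 0.19 and 0.43 with all libraries. The list sums were 8318, 4787 and 8275 ppm in knockdown and 5238, 5302 and 5342 ppm in scramble libraries.

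Of 27 genes of Nogo receptors and axon guidance tested, 1 rose and 1 fell with all libraries, and 11 rose and 2 fell without N2_2. The 1 that fell was Rtn4rl2, a relative of the Nogo receptor, at 12.1, 10.3 and 15.5 ppm in Nmnat2 knockdown cells, against 43.6, 44.8 and 53 ppm in scramble cells (-1.83 ± 0.24, limma adjusted p = 0.0213). Cd200, a surface protein through which neurons restrain microglia, rose, at 76, 86.3 and 79.9 ppm against 20.6, 36 and 23.8 ppm (1.59 ± 0.25, 0.0357). Both held in N2_2 as in the other 2 libraries. Efnb2, an ephrin ligand, and Robo2, a Slit receptor, rose without N2_2 only (limma adjusted p = 0.00118 and 0.000118). Sema3a, a repulsive guidance cue, fell without it (4.59, 19 and 5.25 ppm against 22.1, 17.1 and 12.4 ppm, adjusted p = 0.00727). Genes that act on NMNAT2 protein or downstream of its loss had no call among 17 tested with all libraries by limma. Sarm1, the NADase, was at 40.2, 14.3 and 43.8 ppm against 29.2, 33.8 and 31.6 ppm and passed in neither fit. Without N2_2, 3 rose and 1 fell: Fbxo45 and Skp1a, parts of the ubiquitin ligase that turns NMNAT2 over, and Mapk8ip3, a kinase scaffold, rose (limma adjusted p = 0.00246, 0.0115 and 0.00431), and Cast, the calpain inhibitor calpastatin, fell (7.31, 17.9 and 7.18 ppm against 40.9, 18.6 and 24.6 ppm, adjusted p = 0.00872). No call was made with all libraries among 18 genes of NAD synthesis or 14 NAD consumers. Without N2_2 the synthesis genes had 1 higher, the NAD kinase gene Nadk (83.6, 26.4 and 83.7 ppm against 52.5, 36.7 and 59.5 ppm, adjusted p = 0.0188), and 3 lower, among them Slc12a8 (9.86, 16.9 and 9.51 ppm against 23.2, 24.4 and 25.6 ppm, adjusted p = 0.00201), and the NAD consumers had 2 higher and 1 lower.

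Some genes of energy metabolism fell. Of 26 glycolysis and lactate genes tested, Eno2, Aldoc and Gpi1 (3 genes) fell with all libraries, and 1 rose and 9 fell without N2_2. Eno2, the neuronal enolase, was at 33, 39.2 and 24.9 ppm in Nmnat2 knockdown cells, against 79.5, 96.7 and 81.6 ppm in scramble cells (-1.40 ± 0.20, limma adjusted p = 0.0268, and 0.064 by the median of ratios). Aldoa, an aldolase, was at 453, 778 and 459 ppm against 1067, 1209 and 1231 ppm (adjusted p = 0.0533, and 1.45e-05 without N2_2). Ldha, lactate dehydrogenase A and the most abundant of the list, was at 4415, 5215 and 4291 ppm against 6489, 6886 and 7191 ppm (adjusted p = 0.0932, and 0.000115 without N2_2). All 3 of these genes had groups that did not overlap. The summed level of the list was 10291, 9987 and 10123 ppm against 13542, 14431 and 14783 ppm. Its median log2 difference was -0.45 with all libraries and -0.14 without N2_2, or -0.24 and 0.01 by the median of ratios, so that the sign of the list depends on the scaling without N2_2. Cat, catalase, and Prdx3, the mitochondrial peroxiredoxin, were the 2 of 24 antioxidant genes that fell with all libraries, at 12.2, 7.84 and 11.8 ppm against 33.2, 37.9 and 38.5 ppm (-1.71 ± 0.24, limma adjusted p = 0.0235) and 23.6, 28.2 and 18.4 ppm against 83.1, 89.2 and 58 ppm (-1.67 ± 0.23, 0.0235). Hadhb and Eci2, of fatty acid oxidation, fell too (limma adjusted p = 0.0268 and 0.0268), as did Bnip3, a receptor for removal of mitochondria (20.9, 23 and 22 ppm against 59.6, 61.5 and 56.2 ppm, adjusted p = 0.0213).

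Respiratory chain genes had no call with all libraries, and those encoded in the nucleus had mostly lower calls without N2_2. The summed level of 71 nuclear genes of the respiratory chain was 34007, 62815 and 34361 ppm in knockdown and 45320.1, 43526 and 42042 ppm in scramble libraries, and that of the 13 mitochondrially encoded mRNAs was 28494, 65121 and 28427 ppm and 46739, 27934 and 27434 ppm. In both lists N2_2 was the highest library; its mitochondrial sum restates the mt- share by which N2_2 was singled out above and is a description. No gene of either passed with all libraries, and without N2_2, 31 nuclear ones fell and none rose and 1 mitochondrial one rose. By the median of ratios without N2_2, 16 nuclear ones fell and 1 rose. The median log2 difference of the nuclear genes was -0.28 without N2_2, or -0.12 by the median of ratios, and -0.06 and 0.18 with all libraries, where the sign turns. Cox8a, a subunit of cytochrome oxidase, was at 713, 2263 and 722 ppm against 1477, 1298 and 1275 ppm. The 78 cytosolic ribosomal protein genes summed to 46472, 71407 and 47231 ppm in knockdown and 42698, 37588 and 36416 ppm in scramble libraries, with every knockdown library above scramble. Of these 78, 1 rose with all libraries, and 39 rose and 3 fell without N2_2. The 1 was Rps19, of the small subunit, at 1637, 2257 and 1722 ppm against 769.6, 840.3 and 826 ppm (1.19 ± 0.15, limma adjusted p = 0.0213). Ribosomal protein genes share sequence with many pseudogenes, so that these values are uncertain.

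**Figure D4:**
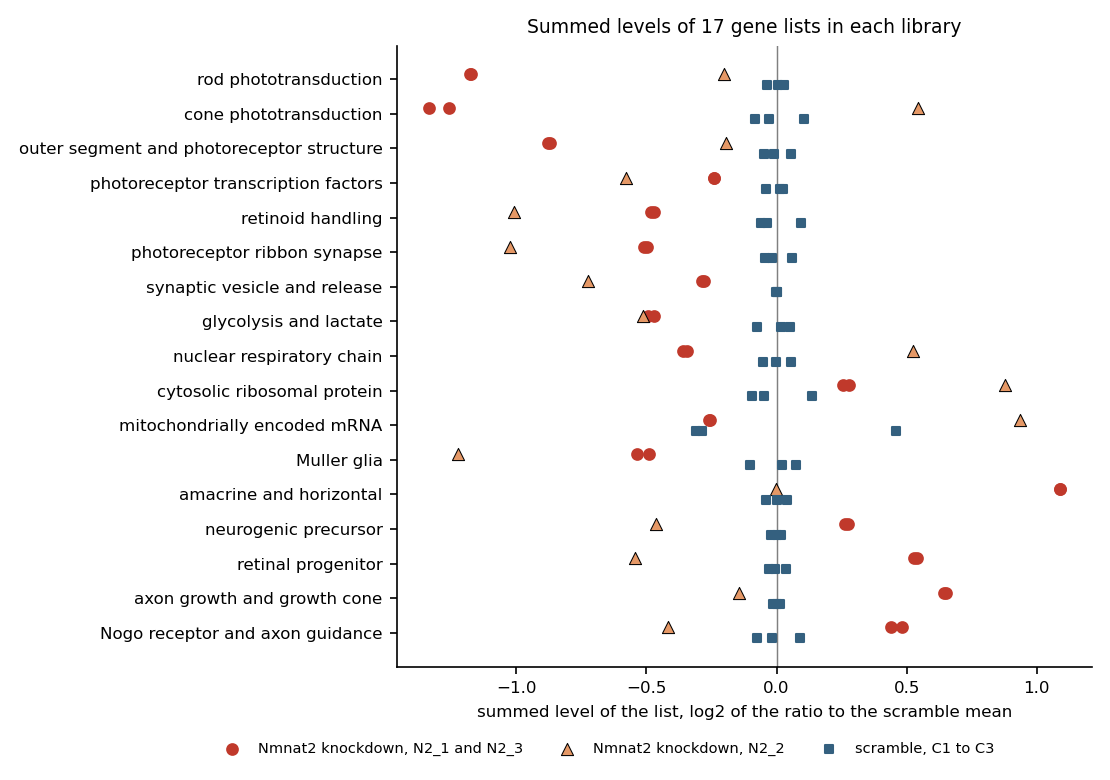
Summed level of each of 17 gene lists in each library, as the log2 of its ratio to the mean of the scramble libraries, with Nmnat2 knockdown (circles for N2_1 and N2_3, a triangle for N2_2) above scramble (squares) in each row. N2_1 and N2_3 lie on top of each other in nearly every row. N2_2 lies on the same side of scramble as they do for the rod, outer segment, transcription factor, retinoid, synapse, vesicle, glycolysis, ribosomal and Müller glia rows, and on the other side for the cone, nuclear respiratory chain, precursor, progenitor, axon growth and Nogo receptor rows.

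Markers of other cells were followed through the sort. Müller glia genes were present, with list sums of 4135, 2483 and 4001 ppm in Nmnat2 knockdown and 5414, 5897 and 6107 ppm in scramble libraries. A single gene, Apoe, made up most of the sum in every one of these libraries. The median log2 difference of the 20 genes tested was -0.45 with all libraries and -0.04 without N2_2. By the median of ratios it was -0.21 with all libraries and 0.10 without N2_2, so that its sign depends on the scaling there. Apoe, the lipid carrier of glia, was at 2196, 1514 and 2110.4 ppm against 3531, 3972 and 4227 ppm and fell (-1.03 ± 0.16, limma adjusted p = 0.0379, and 0.0825 by the median of ratios), as did Crym, a thyroid hormone binding protein (306, 213 and 286 ppm against 568, 516 and 549.5 ppm, -1.03 ± 0.17, 0.0379). Of 20 genes tested these 2 fell with all libraries, and 3 rose and 5 fell without N2_2. Sox9, a factor of progenitors and Müller glia, was among the 3 (55.1, 17.6 and 53.6 ppm against 25.2, 25.8 and 23.6 ppm). Bipolar genes had no call among 14 with all libraries and 5 fell without N2_2, among them Pcp2, a regulator of G proteins in bipolar cells (195, 683 and 209 ppm against 444, 507 and 508 ppm). Cells from outside the neural retina left little RNA. Microglia genes summed to 20.3, 30.5 and 20.1 ppm against 35.8, 23.7 and 25.2 ppm over 9 tested genes and endothelial genes to 72.3, 28.9 and 80.5 ppm against 74.4, 69.4 and 72.2 ppm over 9, with no call in either fit. Lens genes summed to at most 30 ppm in Nmnat2 knockdown libraries and at least 38.6 ppm in scramble libraries, and 1 of 3 fell without N2_2; pericyte genes were below 10 ppm and red cell genes below 16 ppm in every library. Pigment epithelium genes summed to 27.7, 31.2 and 22.1 ppm against 50.5, 61.3 and 57.8 ppm, with all 3 knockdown libraries below scramble, and 1 of 5, Dct, fell without N2_2. The part that cell type shares had in the photoreceptor and amacrine results was not tested. Of 4 Y-linked genes tested, 1 rose with all libraries and 2 rose without N2_2, and their sums were 169.8, 224 and 169.6 ppm in Nmnat2 knockdown and 96.9, 106 and 89.7 ppm in scramble libraries, without overlap. In Nmnat1 knockdown libraries the sums were 173.8, 168.1 and 150.6 ppm, also above every scramble sum, so the difference from scramble is not particular to the Nmnat2 knockdown. Eif2s3y was at 84.1, 108 and 86 ppm against 36.1, 35.4 and 26 ppm and rose (1.49 ± 0.20, limma adjusted p = 0.0233), and Ddx3y at 35.7, 21.1 and 34.1 ppm against 11.8, 17 and 12.3 ppm, also without overlap (limma adjusted p = 0.102, and 0.00178 without N2_2). Uty (24.5, 49.7 and 25 ppm against 20.2, 29.7 and 19.6 ppm) and Kdm5d (25.5, 45.3 and 24.5 ppm against 28.8, 23.5 and 31.7 ppm) overlapped between the groups and passed in neither fit. The sex of the pups is not given in the labels, and the part that it had in the results was not tested.

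Further genes that rose with all libraries included Pmepa1, an inhibitor of TGF-beta signalling, at 151, 243 and 179 ppm in Nmnat2 knockdown cells, against 58.8, 54.4 and 61.1 ppm in scramble cells (1.67 ± 0.21, limma adjusted p = 0.0213), and Acvr2b, an activin receptor, at 178, 156 and 156 ppm against 70.2, 76.8 and 71.7 ppm (1.15 ± 0.16, 0.0213). Olfm1, a secreted glycoprotein of neurons, Hmgn3, a nucleosome-binding protein, Evl, an actin regulator, and Sumo2, a ubiquitin-like modifier, rose by 0.73 to 1.00 on the log2 scale (limma adjusted p between 0.0379 and 0.0484). In each of these 6 genes all Nmnat2 knockdown libraries lay above all scramble libraries. Olfm1 was as high in Nmnat1 knockdown cells, at 225, 245 and 247 ppm (Nmnat1 knockdown minus scramble 1.15, limma adjusted p = 0.0373). Between the 2 knockdowns Olfm1, Hmgn3 and Evl did not pass (limma adjusted p = 0.688, 0.453 and 0.198). Pmepa1, Acvr2b and Sumo2 were higher with Nmnat2 knockdown (0.00832, 0.00606 and 0.0222). Of the 67 called genes without a clone, predicted, pseudogene or immunoglobulin name, and among those that averaged 5 ppm or more in either group, Kcne1l, a potassium channel subunit, had the lowest log2 difference, at 33.1, 88.7 and 36.8 ppm against 198, 182 and 206 ppm (-2.01 ± 0.31, 0.0336, and 0.0716 by the median of ratios). Otop3, of the otopetrin proton channels, was at 12.7, 11.4 and 15.3 ppm against 52.1, 47 and 57.9 ppm (-1.92 ± 0.19, 0.0213), with 3 knockdown values that lay close together. C2cd2l, a lipid transfer protein, was at 46.4, 28.3 and 48 ppm against 109, 135 and 149.6 ppm (-1.68 ± 0.23, 0.0213). Hdhd3, Tmem92, Pla2g7, Tmem98 and Tuba4a had log2 differences between -1.65 and -1.54.

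Leaving out N2_2 brought in genes with larger differences. Cwc22, a splicing factor gene that lies in a stretch known to vary in copy number between mice, was at 310.1 and 290.2 ppm in N2_1 and N2_3 and at 46 ppm in N2_2, against 29.7, 23 and 25.3 ppm in scramble cells (3.49 ± 0.13, limma adjusted p = 8.29e-07 without N2_2; 0.0883 with it). In Nmnat1 knockdown cells Cwc22 was at 101, 90.5 and 102 ppm, above scramble too and above N2_2. Runx1t1, a transcriptional corepressor, was at 93.7 and 84.9 ppm in N2_1 and N2_3 and at 19.8 ppm in N2_2, against 6.85, 13.2 and 13 ppm (2.96 ± 0.32, 0.000349 without N2_2). In Inf2, an actin formin, N2_2 matched its group, at 28.6, 33.9 and 32.1 ppm against 8.33, 0.186 and 6.93 ppm (2.82 ± 0.83, 0.0479 without N2_2; 0.111 with it). Zfp600, a zinc finger gene, was at 3.03, 11.7 and 3.56 ppm against 22.9, 31.8 and 27.8 ppm (-2.72 ± 0.21, 6.28e-05 without N2_2; 0.0506 with it), and Cartpt, a neuropeptide precursor gene, was at 2.07, 24.6 and 1.79 ppm against 16.7, 12.4 and 12.3 ppm (-2.33 ± 0.32, 0.00126 without N2_2). Among genes with a mean of at least 50 ppm, N2_2 lay farthest from N2_1 and N2_3 in a clone gene, in Rps2-ps13, mt-Nd6, mt-Nd5 and Gngt1 (higher in N2_2), and in Zfp810, Nol4, Dkk3, another clone gene and Zswim4 (lower in N2_2). Rps2-ps13, a pseudogene whose reads may be split with Rps2, was at 3.11, 251 and 1.90 ppm against 287, 285 and 296 ppm, near absent in N2_1 and N2_3 and close to scramble in N2_2. Zfp810 was at 71.2, 3.77 and 73.6 ppm against 51.6, 44.2 and 56.3 ppm.

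The direct contrast with the Nmnat1 knockdown asked which genes differ between the 2 knockdowns. In Nmnat2 knockdown cells 159 genes (0.715% of those tested) were higher and 299 (1.34%) lower than in Nmnat1 knockdown cells, and without N2_2 2904 genes passed, 1508 (6.78%) higher and 1396 (6.28%) lower. This contrast shares the Nmnat2 knockdown libraries with the one above, so values are given side by side. Syp was at 999, 1067 and 996 ppm in Nmnat1 knockdown cells, above its Nmnat2 knockdown values of 365, 300.1 and 373 ppm (Nmnat2 knockdown minus Nmnat1 knockdown -1.56 ± 0.14, limma adjusted p = 0.0011). Pde6b (-1.48 ± 0.20, 0.00645), Gnat2 (-1.54 ± 0.28, 0.0226), Slc17a7 (-1.36 ± 0.18, 0.00589) and Nr2e3 (-1.71 ± 0.17, 0.0015) were lower as well, and Opn1sw missed the threshold (-1.39 ± 0.32, 0.0568). Apoe and Crym did not pass (-0.01 ± 0.16, 0.976 and 0.17 ± 0.17, 0.651). Without N2_2 the difference was -1.47 for Syp, -1.31 for Pde6b, -1.52 for Gnat2, -1.51 for Slc17a7, -1.88 for Nr2e3 and -1.82 for Opn1sw, and all 6 passed (limma adjusted p of 0.00476 or lower). Without it Crym passed as higher than in Nmnat1 knockdown cells (0.33, 0.0223) and Apoe did not pass (0.16, 0.232). Calb2 was at 338, 161 and 341 ppm in Nmnat2 knockdown cells and 15, 16.2 and 14.3 ppm in Nmnat1 knockdown cells (4.04 ± 0.27, 0.000456), and Cd200 at 76, 86.3 and 79.9 and 7.63, 10.2 and 10.1 ppm (3.00 ± 0.25, 0.000894). Both passed without N2_2 as well (4.40, 4.59e-08 and 2.95, 3.64e-05).

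**Figure D5:**
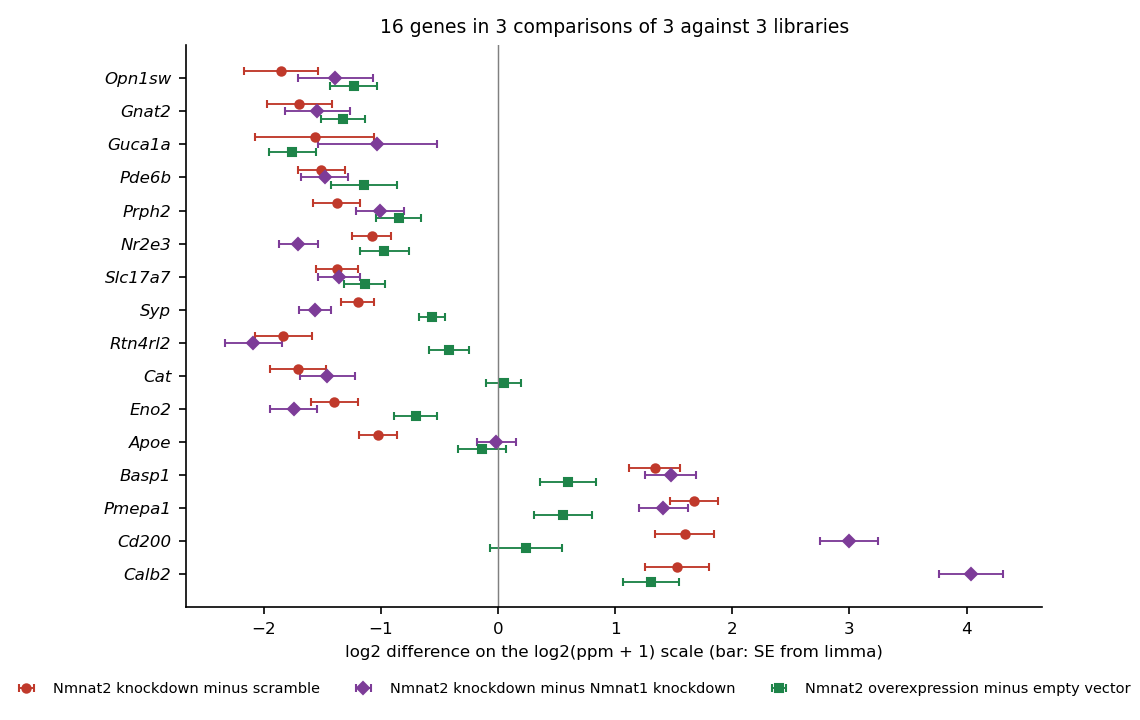
Log2 differences on the log2(ppm + 1) scale with SE from limma for 16 genes, for Nmnat2 knockdown minus scramble (circles), Nmnat2 knockdown minus Nmnat1 knockdown (diamonds, with the same Nmnat2 knockdown libraries) and Nmnat2 overexpression minus empty vector (squares, from other libraries). All genes shown except Cat lie on 1 side of 0 in all 3. Basp1, Pmepa1, Cd200 and Calb2 lie above 0, and the photoreceptor genes, Syp, Rtn4rl2, Eno2 and Apoe below. The overexpression differences of Cd200 and Apoe are smaller than their SE.

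Nmnat2 overexpression was measured in separate libraries, with no sample in common, and there 42 genes (0.203% of 20725 tested) were higher and 72 (0.347%) lower than with the empty vector. Nmnat2 itself was at 20911, 22818 and 21014 ppm with overexpression, against 2.71, 1.14 and 1.80 ppm with the empty vector (12.90 ± 0.24, limma adjusted p = 8.32e-10). Several of the genes that differed in the knockdown differed in the same direction here. Of the 80 genes that fell in Nmnat2 knockdown cells, 9 also fell and 1 rose with overexpression, and 55 lay below 0, where 43% of all genes tested lay below 0. Of the 17 that rose, 1 also rose and 10 lay above 0. Most of all genes tested lay above 0 as well (median log2 difference 0.06), so these 10 are near the share of all genes. Opn1sw was at 61.7, 83.9 and 90.6 ppm with Nmnat2 overexpression, against 235, 164 and 162 ppm with the empty vector (-1.23 ± 0.20, limma adjusted p = 0.0323). Gnat2 was at 19.7, 27.9 and 16.7 ppm against 52.7, 56.8 and 52.6 ppm (-1.33 ± 0.19, 0.0198), and Slc17a7 at 92, 84.8 and 70.8 ppm against 183, 179 and 184 ppm (-1.14 ± 0.17, 0.0258). These 3 were lower without overlap in both tables. C2cd2l, Peli3, an E3 ligase gene, Pias3, a SUMO ligase, Plekhb1, a photoreceptor membrane protein, Gpi1, of glycolysis, and Scarb1, a lipoprotein receptor, were the 6 others that fell in both (adjusted p between 0.0173 and 0.0482 with overexpression). Calb2 was at 66.3, 124 and 115 ppm against 47.3, 34.8 and 36.8 ppm and rose in both (1.30 ± 0.24, 0.0488). Cabp1, a calcium sensor of neurons, was the 1 that moved apart, at 90.0, 116 and 114 ppm against 75.3, 54.8 and 54.9 ppm with overexpression (0.79 ± 0.15, 0.0498) and 51.3, 58.1 and 48.4 ppm against 115, 109 and 114 ppm in the knockdown (-1.09 ± 0.16, 0.0288). The number of calls with overexpression was 1222 without the libraries numbered 1 in that table (678 or 3.27% higher and 544 or 2.62% lower), and all 11 genes called in both tables kept their sign and call there.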

How the data were processed

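RNA-seq libraries of 3 Nmnat2 knockdown and 3 scramble samples were compared, with 3 Nmnat1 knockdown libraries of the same table and 3 Nmnat2 overexpression and 3 empty vector libraries of another. The submitters' processing notes list Salmon 0.11.3, sleuth 0.30.0 and GRCm38.p6 without saying what each did. The deposited values are named TPM by the authors but do not sum to 1000000, so they were treated as a signal and divided by each column's sum. The read totals are unknown, and no counting interval was computed. Approximate reads were inferred only in genes with 1 annotated transcript, to compare pairs of libraries. Two-sided tests used limma 3.58.1 (R 4.3.3) with an intensity trend on log2(ppm + 1), which understates changes of low genes, for genes that reached 1 ppm in 3 or more of the 9 libraries, with all 3 groups of a table in 1 fit and Benjamini-Hochberg adjustment. The fit was tested on simulated data. A ± after a log2 difference is its SE. Members and gene lists were chosen with earlier results of these data known. Genes chosen by rule were the Nmnat genes, and the 11 called genes that rose and the 15 lowest that fell with means of at least 5 ppm in 1 group. Further ones were the 10 largest in each direction without N2_2, 4 per list by p, and the 5 in each direction in which N2_2 differed most. Of those chosen without N2_2 and those chosen by list, only some are named in the text. Other list members were added as examples after their values were seen. Alternatives changed the scaling, pseudocount, filter, trend, weights and libraries. Columns were tied to groups, not to single samples, by name. Figures used matplotlib 3.10.9 in Python 3.11.15, and promoters came from RefSeq. Of the listed genes, 2 are not reported here.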

Additional observations from a re-analysis of the deposited data

Results flagged for a closer look

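Calb2, the calretinin gene, lay on opposite sides of scramble in the 2 knockdowns. It was at 338, 161 and 341 ppm in Nmnat2 knockdown cells and at 15, 16.2 and 14.3 ppm in Nmnat1 knockdown cells, against 96.8, 93.7 and 83.5 ppm in scramble cells. The difference between the knockdowns was itself tested, and Nmnat2 knockdown minus Nmnat1 knockdown was 4.041 on the log2(ppm + 1) scale (limma adjusted p = 0.000456). No group overlapped with another. N2_2 was the lowest of the Nmnat2 knockdown libraries, and without it the difference was 4.40 (4.59e-08). Calb2 was not the only gene on opposite sides. In Nmnat1 knockdown cells Kcne1l was at 465, 539 and 517 ppm and Otop3 at 88.4, 92.9 and 96.9 ppm, above scramble. Cd200 was at 7.63, 10.2 and 10.1 ppm, below scramble. The differences between the knockdowns were -3.38, -2.74 and 3.00 (limma adjusted p = 0.0013, 0.000456 and 0.000894). Nmnat1 knockdown against scramble passed for Calb2 (limma adjusted p = 0.0176) and not for Kcne1l, Otop3 or Cd200 (0.146, 0.163 and 0.0875). No other result of the report was flagged, and groups of 3 samples were not searched for single outlying libraries.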

How the results depend on the processing

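The number of called genes depended on the processing. Against the 97 genes called with all libraries, limma called 0 with only the 6 compared libraries in the fit (2932 at an unadjusted p under 0.05), 0 without the intensity trend (3776), and 0 with N2_1 and N2_3 averaged as 1 sample (2863), an alternative chosen after seeing the data. It called 32 without a filter, 190 with a filter at 5 ppm, 173 with quantile normalization and 5101 with array weights, and between 0 and 3331 when 1 library was left out, the highest being without N2_2. Without N2_2, 3331 genes became 1978 without the trend and 5097 with array weights, and 864 (without N2_3) to 3306 (without C1) when a further library was left out. The contrast with Nmnat1 knockdown had 2904 calls without N2_2, against 458 with it. The overexpression contrast had 71 calls by the median of ratios and 1222 without the libraries numbered 1. The causes of these shifts were not tested. The other alternatives for these 2 counts stayed within 1.5 times. Of the genes chosen by rule, none of 30 called with all libraries and of 20 called without N2_2 changed sign under the alternatives run. Of the 30, all kept their call without N2_2 and at a pseudocount of 5, 24 by the median of ratios, and 0 without C1, C2, C3, N2_1 or N2_3 or with N2_1 and N2_3 averaged. Of the 20, 12 to 20 kept it when a further library was left out, 20 by the median of ratios and 19 at a pseudocount of 5. The uncalled Nmnat1 changed sign, to 0.201 by the median of ratios, 0.042 without C2 and 0.155 without N2_2 (-0.121 to 0.155 over left-out libraries), and the uncalled Nmnat3 to 0.138 without C3 (-0.645 to 0.138). No paired analysis was possible because the columns of the knockdown table carry numbers that are not tied to single labelled samples. Read depth is unknown, and levels near 1 ppm, those of Nmnat2 included, limit what can be seen.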

Other observations

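Lists not described above had few calls. Among 25 genes of TGF-beta and BMP signalling, Pmepa1 was the 1 that rose with all libraries, and 5 rose and 2 fell without N2_2, with list sums of 996, 648 and 1045 ppm in Nmnat2 knockdown and 714, 776 and 816 ppm in scramble libraries. Of 26 potassium channel genes, Kcne1l was the 1 that fell with all libraries, and 2 rose and 4 fell without N2_2. Kcnq5, a channel subunit of neurons, was at 0.853, 3.08 and 1.25 ppm against 17.9, 6.68 and 6.17 ppm (-2.31 ± 0.44, limma adjusted p = 0.00752 without N2_2; 0.0932 with it). Of 31 proteasome genes, Psma1, an alpha subunit, fell with all libraries (188, 171 and 179 ppm against 339, 311 and 308 ppm, limma adjusted p = 0.0379), whereas 8 rose and 2 fell without N2_2.

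Genes of cell death and stress gave no call with all libraries among 25 p53 targets, 14 genes of the Bcl2 family and 26 genes of the unfolded protein and integrated stress responses (limma adjusted p under 0.05). Without N2_2, 6 p53 targets rose and 2 fell, and their sums were 1819.8, 1137 and 1750.0 ppm in Nmnat2 knockdown and 1260.4, 1184 and 1243 ppm in scramble libraries, while the Bcl2 family and the stress responses had 1 higher and 1 lower each. Bax, which opens the mitochondrial membrane in apoptosis, was at 263, 306 and 263 ppm against 236, 236 and 234 ppm (0.16 ± 0.08, limma adjusted p = 0.227 without N2_2). Ddit3, the stress factor CHOP, was at 100.1, 159 and 101 ppm against 97.7, 69.7 and 88.4 ppm (0.47 ± 0.24, 0.356; 0.385 without N2_2). Of 15 genes of the axon injury response none passed with all libraries, and 1 rose and 1 fell without N2_2. Sox11, a factor of young and of regenerating neurons, was at 13.2, 12.5 and 13 ppm against 8.23, 7.35 and 8.33 ppm (0.65 ± 0.26, 0.126 without N2_2; 0.257 with it).

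Ganglion cell markers summed to 72.1, 57 and 62.3 ppm in Nmnat2 knockdown and 105, 40.3 and 49.6 ppm in scramble libraries, with no call among 14 with all libraries and 1 higher without N2_2. Of 6 astrocyte markers none passed with all libraries, and 1 rose and 1 fell without N2_2. Of 23 genes of cholesterol synthesis and 23 of the TCA cycle none passed with all libraries, and 2 rose and 3 fell, and 1 rose and 3 fell, without N2_2.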
